A study of Canis lupus familiaris with 22 samples.

Results

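Peripheral retina was compared with peripheral RPE/choroid, the retinal pigment epithelium sampled with the choroid behind it. The comparison took every library labelled as one of these tissues, 8 of the 22 in the series, and set all 30951 identifiers of the count files side by side. The 8 libraries came from 4 mixed-breed dogs, and both tissues of a dog came from the same eye, so each dog was its own control. Dog 18-2 was a male pitbull mix and dog 18-9 a female boxer mix, both with an estimated age of 2 to 3 years. Dog 18-6 was a male mastiff mix and dog 18-7 a female pitbull mix, both estimated at 3 to 5 years. Left eyes were used for dogs 18-2 and 18-6 and right eyes for dogs 18-7 and 18-9, so that eye side and sex cannot be told apart. No treatment or genotype is given for any of them. The same 4 dogs also gave a macular retina and a macular RPE/choroid library each, and 3 other dogs gave 6 macular RPE/choroid libraries. Each of these other dogs gave a library sampled with the retina left on and another sampled with the retina peeled off. Their ages are given as 3 to 5, 2 to 3 and 3 to 4 years, in the order used below.

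The retina is the neural layer of the eye, in which rods and cones turn light into electrical signals that bipolar, amacrine and ganglion cells process. The RPE is a single layer of pigmented cells that recycles the visual pigment, takes up shed photoreceptor tips and carries nutrients from the choroid, a vascular layer that also holds melanocytes, fibroblasts and immune cells. In the peripheral eye rods outnumber cones, and retina and RPE are pressed against each other without being fused. A dissected RPE/choroid sample therefore holds several cell types, and either tissue can carry traces of the other.

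The count files gave Ensembl identifiers with no gene names, and the gene reference used held no Ensembl identifiers. For that reason 0 of the 30951 identifiers could be matched to a symbol. Single genes are therefore given by identifier, and the tissue labels were not checked against marker genes. Total counts were 5608368, 4664101, 6138867 and 6043777 in the peripheral retina of dogs 18-2, 18-6, 18-7 and 18-9, and 4907456, 2690847, 6963346 and 6564421 in their peripheral RPE/choroid. Counts were spread thinly over many identifiers, whereas retinal RNA-seq libraries commonly give a large share to a few photoreceptor transcripts. How duplicate reads were treated is not known here, so abundance ranks below are ranks of these counts. The most abundant identifier of a library held 933 to 1054 CPM (counts per 1000000, scaled by a library's total count) in peripheral retina and 986 to 1430 CPM in peripheral RPE/choroid, against 933 to 1527 CPM over all 22 libraries.

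Most of the transcriptome that could be tested differed between the tissues. Of 14729 identifiers with enough counts, 9700 passed the threshold, which is 65.9% (edgeR's quasi-likelihood test with the dog as a block, Benjamini-Hochberg adjusted p under 0.05, n = 4 dogs). With the TMM scaling of library sizes used in this test, 4828 were on the retina side (32.8%) and 4872 on the RPE/choroid side (33.1%). The split depended on the scaling, and was 5508 and 4449 with total counts alone. In bulk samples such as these, fewer cells of a type and less RNA per cell cannot be told apart.

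Many of these differences were small. Identifiers higher in retina had a median log2 fold change of 1.03, a 2.04-fold difference, and 2358 of the 4828 (48.8%) differed by under 2-fold. Those higher in RPE/choroid had a median of -1.37, a 2.58-fold difference, and 1847 of the 4872 (37.9%) were under 2-fold. Retina-high identifiers reached the more extreme ratios. A difference of at least 4-fold was found for 1437 on the retina side (9.76% of those tested) and for 1755 on the RPE/choroid side (11.9%). At least 16-fold, the order was reversed, with 708 and 654, and at least 64-fold it was 313 and 201. Folds of this size include identifiers with few or no counts in 1 tissue, for which the fitted value depends on the prior count. When the test itself asked for more than a 2-fold difference (edgeR's glmTreat), 4403 identifiers passed (29.9%), of which 1934 were higher in retina and 2469 in RPE/choroid.

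**Figure D1:**
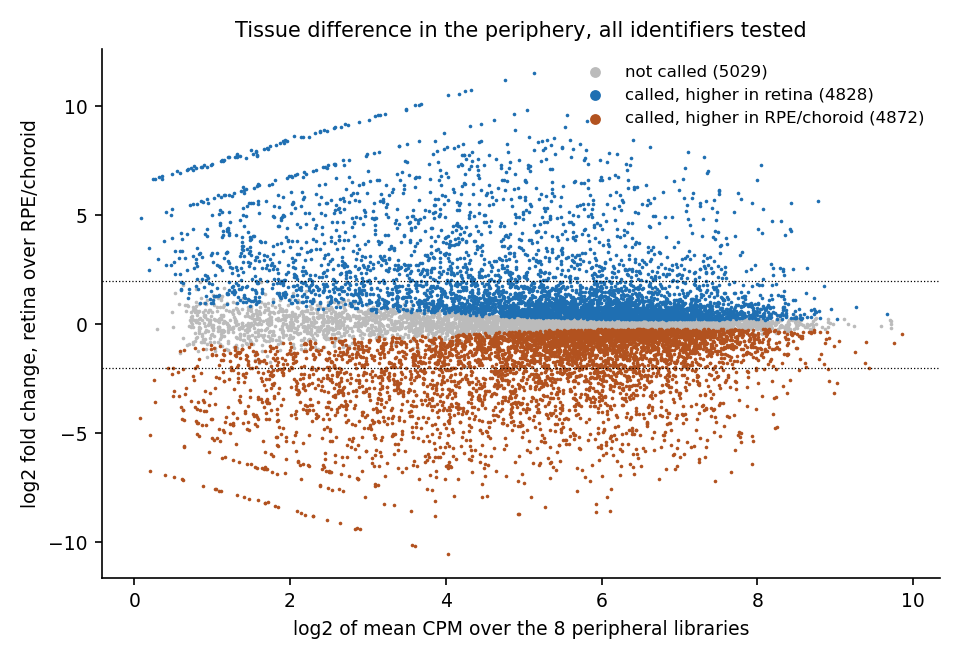
Each point is 1 of the 14729 identifiers tested, placed by the log2 of its mean CPM over the 8 peripheral libraries (horizontal) and its log2 fold change, retina over RPE/choroid (vertical). Blue points were called higher in retina (4828), orange points higher in RPE/choroid (4872) and grey points were not called. Dotted lines mark 4-fold, and the straight streaks at low abundance are identifiers with no or nearly no count in one tissue, whose fitted fold depends on the prior count.

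The paired test favours identifiers with 1 direction in every dog, so the agreement between dogs is a description. All 4 dogs had the higher value in retina for 4793 of the 4828 identifiers called there (99.3%), and the higher value in RPE/choroid for 4783 of the 4872 (98.2%). Over all identifiers tested, 74.3% had 1 direction in all 4 dogs, and of those not called, 27.1% had. The libraries of the tissues did not overlap in CPM for 9270 of all identifiers tested (62.9%). Retina was the higher side for 5221 of these and RPE/choroid for 4049. Of the 5029 not called, 624 did not overlap with retina higher and 19 with RPE/choroid higher. This CPM is scaled by total counts, which places retina higher than the TMM scaling of the test does. The TMM factors were 1.02 to 1.04 in retina and 0.947 to 0.983 in RPE/choroid. The sides are therefore not compared. Among the called ones, retina and RPE/choroid libraries were fully separated for 4597 of 4828 (95.2%) on the retina side and for 4030 of 4872 (82.7%) on the RPE/choroid side. For differences of at least 4-fold these counts were 1435 of 1437 and 1731 of 1755. Only 1 identifier was at least 4-fold apart without being called, and its direction differed between dogs.

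Abundance changed the size of the differences more than their number. Among the 1368 identifiers with a mean of 1 to 5 CPM, 61.3% were called, and among the 217 with at least 300 CPM, 62.7%. The median absolute log2 fold change fell from 1.57 in the first of these classes to 0.39 in the second. The share called and at least 4-fold apart was 42.5% at 1 to 5 CPM, 38.6% at 5 to 20 CPM, 16.6% at 20 to 100 CPM, 10.8% at 100 to 300 CPM and 10.6% above. A rare identifier passed the filter on low counts only where it was high enough in at least 1 tissue, so the first shares do not describe all rare identifiers. In the most abundant class, 12 identifiers reached 4-fold towards retina and 11 towards RPE/choroid.

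**Figure D2:**
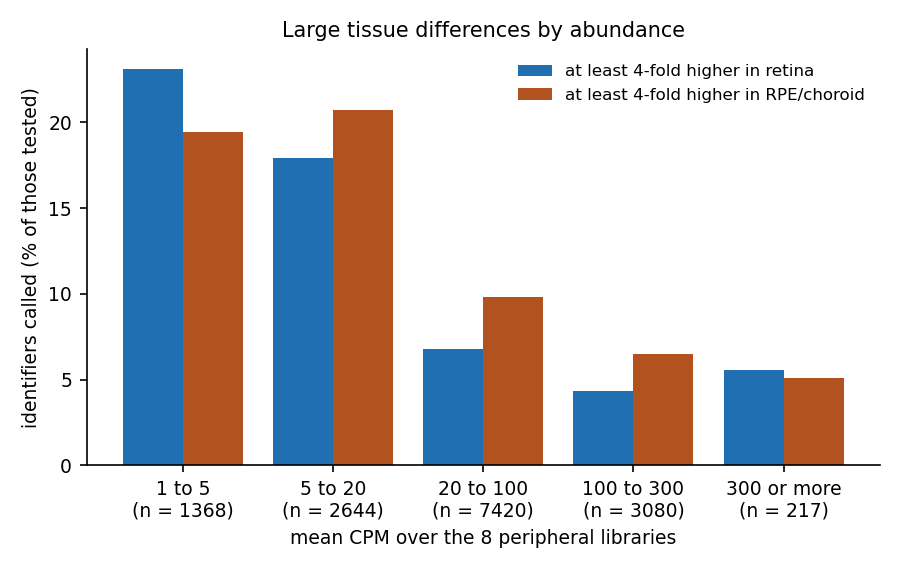
Bars give, for 5 classes of mean CPM over the 8 peripheral libraries (horizontal, with the number of identifiers tested), the share of those identifiers in percent (vertical, from 0) that was called and reached 4-fold towards retina (blue) or towards RPE/choroid (orange). Both bars are tallest below 20 CPM, and the RPE/choroid bar is the taller one from 5 to 300 CPM.

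The identifiers with large differences made up a minor share of each library. The 1437 on the retina side of 4-fold held 10.1 ± 0.31% of the counts of peripheral retina and 0.914 ± 0.170% of those of peripheral RPE/choroid (SD, n = 4 dogs). The 1755 higher in RPE/choroid held 14.0 ± 0.37% of the counts of that tissue and 1.62 ± 0.14% of those of retina. Identifiers that differed by under 2-fold, 9162 in number, held 75.2 ± 0.42% of the retinal counts and 69.9 ± 0.50% of the RPE/choroid counts. These shares describe the libraries that chose the identifiers and are not tested.

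The tissues shared few of their most abundant identifiers. Of the 10 with the highest mean CPM in each tissue, 2 were in both lists, and of the first 100, 24 were. Among the first 1000, 505 were shared. These ranks follow counts and not levels per length, since transcript lengths were not used.

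Evenness of the counts was also compared. The 10 most abundant identifiers held 0.846 ± 0.045% of the counts in retina and 0.975 ± 0.153% in RPE/choroid (SD, n = 4 dogs). The share was lower in the retina of 4 of 4 dogs, with a mean log2 ratio of -0.19 ± 0.16 (SD). The exact two-sided sign-flip permutation test over dogs cannot reach p under 0.05 with 4 pairs. It gave its smallest possible value, with adjusted p = 0.208 over 5 such tests. The number of identifiers that together hold 50% of the counts was 2448 ± 54.6 in retina and 2417 ± 194 in RPE/choroid, and was higher in the retina of 2 of 4 dogs (exact two-sided permutation p = 0.75, adjusted p = 0.75). At the depth of the smallest library, 17173 ± 70 identifiers would be detected in retina and 16997 ± 249 in RPE/choroid, with the higher number in the retina of 3 of 4 dogs (exact two-sided permutation p = 0.375, adjusted p = 0.469).

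Of the identifiers called, at least 4-fold different and of one direction in all 4 dogs, the 2 with the highest mean CPM on each side are described in full. In ENSCAFG00000006995, the retina libraries of dogs 18-2, 18-6, 18-7 and 18-9 had 859, 943, 830 and 816 CPM, and the RPE/choroid libraries 14.9, 28.2, 24.0 and 4.42 CPM. The retinal values lay within a narrow band (862 ± 56.5, SD, n = 4), whereas those of RPE/choroid (17.9 ± 10.6) were spread, with dog 18-9 the lowest. The log2 fold change was 5.67 ± 0.39 (SE, edgeR adjusted p = 1.39e-05), and the ratios of single dogs ran from 4.91 in dog 18-6 to 7.14 in dog 18-9. This identifier had the fifth highest mean CPM in peripheral retina and the largest log2 fold change of the class above 300 CPM.

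ENSCAFG00000017958 had 699, 804, 621 and 620 CPM in retina and 82.5, 122, 137 and 95.4 CPM in RPE/choroid, in the same order of dogs. Again the groups were far apart, and the dog with the highest retinal value was not the one with the highest RPE/choroid value. Its log2 fold change was 2.57 ± 0.15 (SE, edgeR adjusted p = 7.28e-06).

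On the other side, ENSCAFG00000000419 had 72.7, 108, 124 and 121 CPM in retina and 898, 1277, 694 and 771 CPM in RPE/choroid. Every RPE/choroid library was above every retina library, and dog 18-6, with the smallest library, had the highest value. The log2 fold change was -3.17 ± 0.22 (SE, edgeR adjusted p = 1.61e-05).

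ENSCAFG00000001630 had 132, 127, 174 and 156 CPM in retina and 892, 1086, 770 and 822 CPM in RPE/choroid. Dog 18-6 was again the highest in RPE/choroid and was the lowest in retina. The log2 fold change was -2.69 ± 0.17 (SE, edgeR adjusted p = 9.33e-06).

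**Figure D3:**
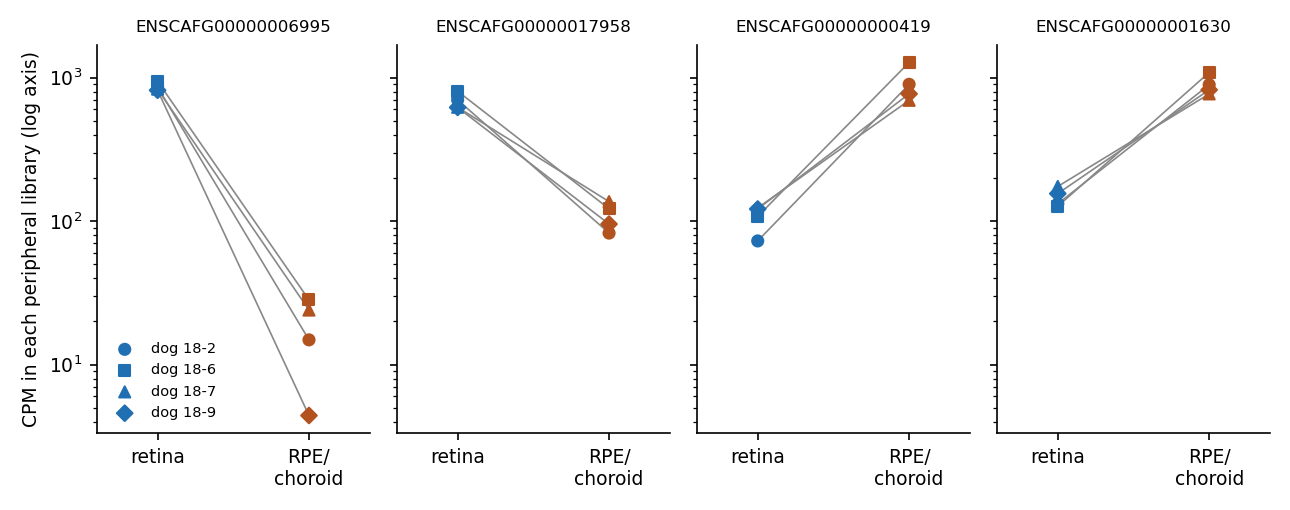
CPM on a log axis (vertical) of ENSCAFG00000006995, ENSCAFG00000017958, ENSCAFG00000000419 and ENSCAFG00000001630 in the 8 peripheral libraries, by tissue (horizontal). Each symbol is 1 dog and a line joins the tissues of a dog. The 4 lines of a panel run the same way, and the widest scatter is that of ENSCAFG00000006995 in RPE/choroid, from 4.42 to 28.2 CPM.

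Some identifiers were counted in 1 tissue only. At least 1 count in the 8 libraries was seen for 22300 identifiers, and 14691 were counted in every library. Counts in retina with none in RPE/choroid were found for 1903, and the reverse for 1787. Most of these were near the limit of detection, with medians of 0.0853 and 0.0929 CPM. Over the pooled libraries of a tissue a count of 0 allows up to 0.134 CPM in retina and 0.142 CPM in RPE/choroid, taken as 3 counts and covering counting error only. With a requirement of at least 1 CPM in all 4 libraries of the tissue, 114 retina-only and 52 RPE/choroid-only identifiers were left. At 5 CPM these were 36 and 12, and at 20 CPM 8 and 1.

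The macular libraries of the same dogs, which did not choose these identifiers, gave a second measurement of them. Of the 114 retina-only identifiers, 98 had at least 1 CPM in all 4 macular retina libraries, 61 were without a count in macular RPE/choroid, and 49 met both conditions. Of the 52 RPE/choroid-only identifiers, 28 had at least 1 CPM in all 4 macular RPE/choroid libraries, 23 had no count in macular retina, and 18 met both. At least 1 of the conditions failed in the macula for 65 of the 114 and 34 of the 52. The macular RPE/choroid of dogs 18-6 and 18-9 stood apart, as given with the regional comparison. In the macular libraries of dogs 18-2 and 18-7 alone, where fewer libraries make both conditions easier to meet, 76 of the 114 and 36 of the 52 met both.

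Each dog was also taken alone, as the ratio of its own peripheral libraries on the log2(CPM + 1) scale after TMM scaling. Ratios of at least 4-fold towards retina numbered 1348 in dog 18-2, 1495 in dog 18-6, 1156 in dog 18-7 and 1198 in dog 18-9. Towards RPE/choroid they numbered 1502, 1481, 1531 and 1714 in the same order. Dog 18-6 was the only dog with more of the first kind than of the second. Of 1745 identifiers that reached 4-fold towards retina in any dog, 916 (52.5%) did so in all 4 dogs, and towards RPE/choroid 1073 of 2069 (51.9%) did.

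Across 13361 identifiers with a mean of at least 5 CPM, which are not independent replicates, the ratios of any pair of dogs correlated at 0.937 to 0.959 (Pearson) and 0.898 to 0.949 (Spearman). The range of an identifier's ratio over the 4 dogs had a median of 0.55 on the log2 scale and was 2 or more for 462 identifiers (3.46%). Only 20 identifiers reached 2-fold towards retina in 1 dog and 2-fold towards RPE/choroid in another. Tissue held 89.9% of the sum of squares of log2(CPM + 1) over the 14729 identifiers tested, the dog held 5.90%, and tissue by dog 4.17%. Each share also holds error, and those of dog and tissue by dog have equal degrees of freedom.

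Dogs varied more in RPE/choroid than in retina. Over 11585 identifiers with at least 5 CPM in both tissues, the SD over the 4 dogs had a median of 0.13 in retina and 0.21 in RPE/choroid on the log2 scale, and it was larger in RPE/choroid for 8315 (71.8%). The RPE/choroid library of dog 18-6, the smallest of the 8, lay farthest from its tissue's mean, at a median absolute deviation of 0.200. The other RPE/choroid libraries lay at 0.105 (dog 18-2), 0.133 (dog 18-7) and 0.133 (dog 18-9), and the 4 retina libraries at 0.0701 to 0.100. Without dog 18-6 the median SDs were 0.116 and 0.154, and 61.5% of identifiers varied more in RPE/choroid. The common biological coefficient of variation from edgeR was 0.130 in retina and 0.223 in RPE/choroid, and 0.132 and 0.195 without dog 18-6. The part of cell makeup, dissection or depth in this difference was not tested.

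**Figure D4:**
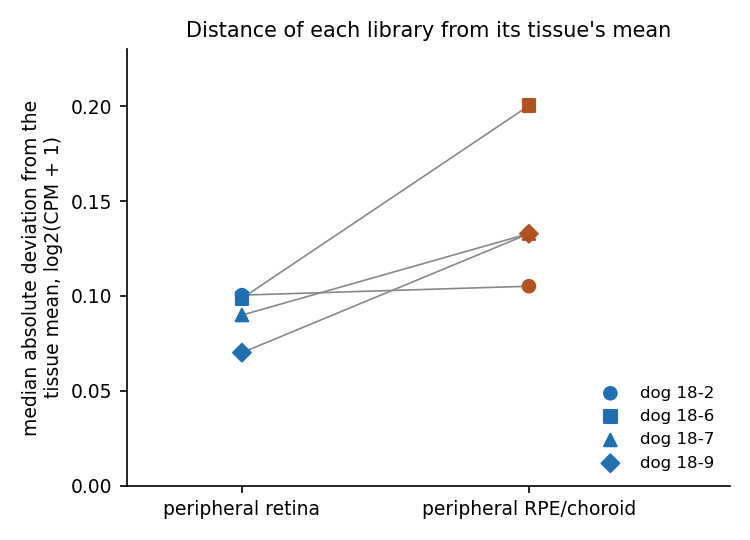
Median absolute deviation of each peripheral library from the mean of its tissue on the log2(CPM + 1) scale (vertical, from 0), over 11585 identifiers, by tissue (horizontal). Each symbol is 1 dog and a line joins its tissues. The 4 retina libraries lie between 0.0701 and 0.100, and the RPE/choroid library of dog 18-6 is the highest, at 0.200.

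Few identifiers were called for a difference between dogs that was shared by both tissues. With 8 libraries the test can miss such differences, so the number called is not the number that differs. With tissue in the model, 22 of 14729 identifiers (0.149%) differed between the 4 dogs, and 1256 had an unadjusted p under 0.05 (edgeR). As the test looks for differences shared by the tissues, the dog with the highest value was often the same in both, for 20 of the 22 against 33.3% of all identifiers tested. Their values spanned a median of 2.46 in retina and 2.68 in RPE/choroid on the log2(CPM + 1) scale. The count was 0, 20, 21 and 5 without dogs 18-2, 18-6, 18-7 and 18-9. An unadjusted p under 0.05 (edgeR) was reached by 1319, 882, 1017 and 1262 identifiers in the same order. These fits also have fewer libraries, so the part of single dogs in the count was not tested.

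How far the peripheral difference holds elsewhere in the eye was asked with the macular libraries of the same dogs, in which 9456 of 14997 identifiers (63.1%) were called between the tissues. Before that, a feature of these libraries has to be given. In the macular RPE/choroid of dogs 18-6 and 18-9, 190 of the 11968 identifiers with at least 5 CPM in all 4 peripheral RPE/choroid libraries were more than 4-fold below their level in dogs 18-2 and 18-7. The opposite pattern was met by 0 identifiers. The requirement on the peripheral libraries keeps the pattern out of them, so it was also counted with 5 CPM required only in the 2 higher dogs of the same group. Then 195 of 12491 identifiers were low in the macular RPE/choroid of dogs 18-6 and 18-9, and 7 of 12384 in their peripheral RPE/choroid. In retina, 50 of 12545 were low in the macula of dogs 18-2 and 18-7, and 5 of 12639 in that of dogs 18-6 and 18-9. The 190, chosen by this pattern after their values were seen, held 1.19% and 1.77% of the counts in the macular RPE/choroid of dogs 18-2 and 18-7, and 0.163% and 0.133% in that of dogs 18-6 and 18-9. In the 4 peripheral RPE/choroid libraries they held 1.77 to 2.22%. Some counts that rest on the macular libraries are also given without dogs 18-6 and 18-9, where this is stated, and the others are not.

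Identifiers with large macular differences were largely those with large peripheral differences. Of 1641 with a 4-fold or larger excess in macular retina, 1539 could be tested in the periphery, 1484 were called higher in retina there (32.8% of all identifiers tested were) and 1252 were again at least 4-fold higher (9.76% of all). The 1252 were 76.3% of the macular list and 87.1% of the peripheral one. Of 1808 with such an excess in macular RPE/choroid, 1664 were tested, 1640 were called in the same direction (33.1% of all tested) and 1360 reached 4-fold (11.9% of all). The 1360 were 75.2% of the macular list and 77.5% of the peripheral one. Called in the opposite direction were 2 and 1. The filter admits members scarce in 1 tissue mainly through the other tissue, so the directions called are a description. When the macular differences were taken from dogs 18-2 and 18-7 alone, 1273 of 1715 (74.2%) and 1493 of 1922 (77.7%) also reached 4-fold in the periphery. The median absolute log2 fold change over the 14568 identifiers tested in both regions was 0.63 in the periphery and 0.63 in the macula.

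The 200 identifiers with the largest macular fold in each direction were then summed in the peripheral libraries, which had no part in choosing them. The retina list held 0.702, 0.791, 0.815 and 0.784% of the counts in the peripheral retina of dogs 18-2, 18-6, 18-7 and 18-9, and 0.00346, 0.00457, 0.00679 and 0.00774% in their RPE/choroid. Its level was 144-fold higher in retina, with a mean log2 ratio of 7.17 ± 0.46 (SD, n = 4 dogs). The groups did not overlap, and within RPE/choroid the highest and the lowest value differed by more than 2-fold. The RPE/choroid list held 0.972, 0.965, 0.953 and 1.07% of the counts in RPE/choroid, and 0.0165, 0.0173, 0.0155 and 0.0316% in retina, where dog 18-9 stood above the others. Its level was 51.1-fold higher in RPE/choroid, with a mean log2 ratio of -5.67 ± 0.40 (SD, n = 4 dogs).

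Both lists pointed the same way in 4 of 4 dogs, and the exact two-sided permutation test gave its smallest possible value for each (adjusted p = 0.208 over 5 tests). Lists chosen in the macula of dogs 18-2 and 18-7 alone gave 7.07 ± 0.65 and -5.74 ± 0.49 (SD, n = 4 dogs). In the retina list, 188 of 200 members had enough peripheral counts to be tested, and all 188 were called higher in retina. In the RPE/choroid list, 160 of 200 were tested and all 160 were called higher in RPE/choroid. The other 12 and 40 members passed no filter in the periphery and have no test. The same directions held for 32.8% and 33.1% of all identifiers tested. In the retina list 56 members had no count in peripheral RPE/choroid, and in the RPE/choroid list 27 had none in peripheral retina. Members scarce in 1 tissue pass the filter mainly through the tissue where they are high, which largely fixes their direction. The 188 of 188 and 160 of 160 are therefore a description.

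Whether the tissue difference itself differed between regions was tested in 1 model that kept the 4 libraries of a dog together. Of 15577 identifiers, 2049 were called (13.2%), with 1001 more positive towards retina in the periphery and 1048 more negative (edgeR, n = 4 dogs). The median absolute value was 0.83 on the log2 scale, and 842 were at least 2-fold and 292 at least 4-fold. Of the 2020 that had a fold change in both regions, 703 had the same direction and a larger size in the periphery, 851 had the same direction and a smaller size, and 466 had opposite signs, of which 35 were called in both regions. Of the 1913 identifiers called between tissues in the periphery and not in the macula, 488 passed this test of the difference. Of the 1661 called in the macula and not in the periphery 331 did, and of the 7787 called in both 1139 did, against 13.2% of all. A call in 1 region only was read from the same libraries and favours passing this test, so these counts are a description.

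Identifiers with large peripheral differences had regional calls in both directions. Of all 15577 identifiers in that test, 13.2% were called, 1001 more positive in the periphery and 1048 more negative. Among the 1437 on the retina side of 4-fold, the difference was more positive in the periphery for 130 and more negative for 73. Among the 1755 on the RPE/choroid side, it was more negative, and so larger, for 229 and more positive for 149. Selection on the peripheral value favours the larger size in the periphery in both cases, so these counts are a description. Of the 190 identifiers that were low in the macular RPE/choroid of dogs 18-6 and 18-9, 66 were among the 2049. All 66 were more negative in the periphery, the direction that their selection favours. Leaving out dog 18-2, 18-6, 18-7 or 18-9 gave 465, 671, 1234 or 341 calls. It was 1880 without both dogs 18-6 and 18-9, where 1 residual degree of freedom was left, and 292 when only the dog and region were paired. The near-even split of 1001 and 1048 did not hold in these fits. More positive and more negative were 754 and 1126 without both dogs, 178 and 114 with the dog and region paired, and 681 and 941 with DESeq2.

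**Figure D5:**
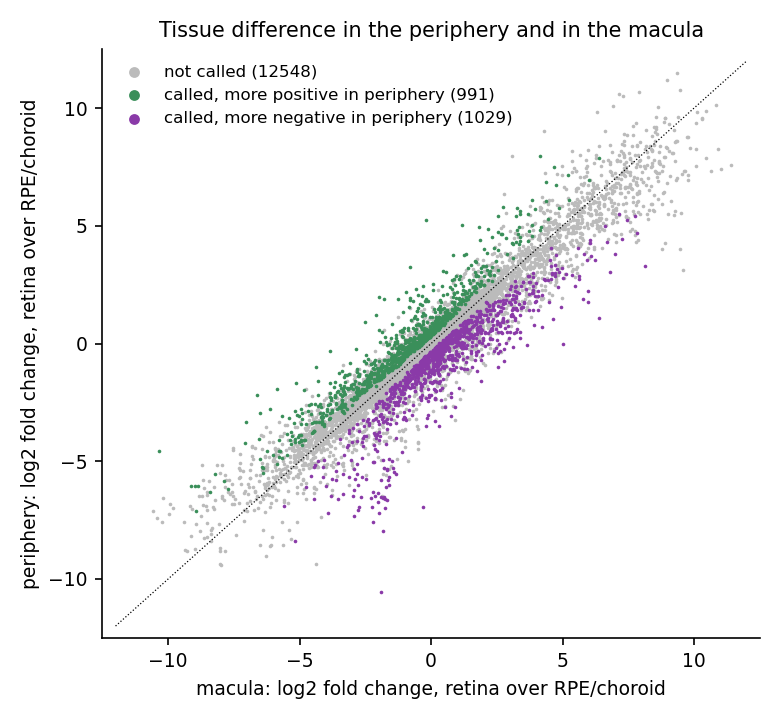
Each point is 1 of the 14568 identifiers tested in both regions, placed by its log2 fold change, retina over RPE/choroid, in the macula (horizontal) and in the periphery (vertical). Green points were called more positive in the periphery (991) and purple points more negative (1029), and the dotted line marks equal values. Most points follow the line, and a group of purple points with strongly negative peripheral and mildly negative macular values lies below it.

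The abundant identifiers described above fell on both sides of this test. ENSCAFG00000017958 was 2.57 ± 0.15 higher in retina on the log2 scale in the periphery and 1.15 ± 0.08 in the macula, where retina had 562 ± 74.2 and RPE/choroid 240 ± 35.9 CPM (SD, n = 4). The difference between regions was 1.42 ± 0.11 (SE, edgeR adjusted p = 0.00548), and it stayed past the threshold with each dog left out in turn. ENSCAFG00000000419 was -3.17 ± 0.22 in the periphery and -2.08 ± 0.11 in the macula, with 198 ± 8.14 CPM in macular retina and 797 ± 124 CPM in macular RPE/choroid. The difference was -1.10 ± 0.18 (SE, edgeR adjusted p = 0.0188, 0.0681 without dog 18-6 and 0.0803 with dog-by-region blocks alone). ENSCAFG00000006995 (5.45 ± 0.28 in the macula) and ENSCAFG00000001630 (-3.07 ± 0.13) did not pass the test of the difference (edgeR adjusted p = 0.615 and 0.0913).

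The 4 identifiers with the most extreme dependence on region were all scarce in at least 1 group, so CPM values are given in place of fitted folds. ENSCAFG00000000052 was an RPE/choroid identifier in both regions, and far less so in the periphery. Its peripheral RPE/choroid libraries had 29.5, 7.80, 18.0 and 17.2 CPM in dogs 18-2, 18-6, 18-7 and 18-9, and the macular ones 156, 112, 108 and 136 CPM. In retina it had 0, 0.214, 0.489 and 2.65 CPM in the periphery and 0, 0.412, 0 and 0 in the macula (edgeR adjusted p = 0.0247, 0.0521 and 0.149 without dogs 18-7 and 18-9, and 0.0774 with dog-by-region blocks alone). Peripheral and macular RPE/choroid did not overlap.

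ENSCAFG00000038248 was near the limit of detection in peripheral retina, with 1.25, 0.858, 0.489 and 0.662 CPM, and in peripheral RPE/choroid, with 1.43, 0.372, 1.01 and 3.20 CPM. The peripheral tissues overlapped. In the macula it had no count in retina and 3.86, 3.28, 6.35 and 12.49 CPM in RPE/choroid (edgeR adjusted p = 0.0425, 0.0615 to 0.0922 with 1 dog left out and 0.0502 with dog-by-region blocks alone).

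ENSCAFG00000005313 had no count in any peripheral retina library and 27.1, 27.9, 45.8 and 29.2 CPM in peripheral RPE/choroid. In macular RPE/choroid the dogs divided, with 13.8 and 37.5 CPM in dogs 18-2 and 18-7 and 0.219 and 0.142 CPM in dogs 18-6 and 18-9. In macular retina the order was turned, with 0.147 and 0.152 CPM in dogs 18-2 and 18-7 and 2.68 and 3.54 CPM in dogs 18-6 and 18-9. ENSCAFG00000048501 had the same division, with no count in peripheral retina, 11.6, 11.9, 41.8 and 29.4 CPM in peripheral RPE/choroid and 8.36, 1.09, 31.0 and 0.426 CPM in macular RPE/choroid. In macular retina it had 0.824 and 1.45 CPM in dogs 18-6 and 18-9 and no count in the others. Their adjusted p-values for the difference between regions were 0.0158 and 0.0293 (edgeR) with all dogs, and 0.282 and 1 without dogs 18-6 and 18-9. For ENSCAFG00000005313 it was 0.164 to 0.316 in the fits without the full pairing of a dog's libraries, and for ENSCAFG00000048501 0.273 to 0.356. Without dog 18-6 or dog 18-9 alone it was 0.0382 and 0.0525 for the first and 0.0559 and 0.134 for the second (edgeR). The fit without both dogs had 1 residual degree of freedom, and the part of these dogs in the regional calls was not tested. The peripheral RPE/choroid values of both identifiers were above every retinal value in all 4 dogs.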

How the data were processed

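Per the labels' protocols, total RNA was column-purified with DNase digestion and an Illumina directional kit was used for the libraries. The authors deposited raw read counts per Ensembl gene identifier, as whole numbers, in every file. The tools listed, per the submitters' processing notes, are featureCounts 2.0.0, HISAT2 2.1.0, Trimmomatic 0.39, FastQC 0.11.8 and SAMtools, with no role stated. Not given in the sources used here are the genome build, the annotation, the strand setting and how duplicate reads were treated. Reads of overlapping, antisense or near-identical genes may therefore have been assigned to either gene, and the part of duplicate handling in the even spread of counts was not tested.

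The test was edgeR 4.0.16 in R 4.3.3 (glmQLFTest on a glmQLFit, and glmTreat) after filterByExpr and TMM normalization, with the dog as a block and a Benjamini-Hochberg adjusted p under 0.05 over all identifiers tested. All adjusted p-values of single identifiers come from edgeR. The SE of a log2 value was computed as its absolute value over the square root of the test's F statistic, and is approximate. The 8 peripheral libraries were fitted alone. The regional test used 16 libraries with dog by tissue and dog by region as blocks and 3 residual degrees of freedom. DESeq2 1.42.0 was an alternative. The pairing rests on the animal, and the deviations of a dog's peripheral libraries from their tissue means correlated at 0.0893, 0.263, 0.204 and 0.180 (dogs 18-2, 18-6, 18-7 and 18-9). Between retina and RPE/choroid of different dogs these correlations ran from -0.245 to 0.139. Retina of dog 18-2 gave 0.0869 with RPE/choroid of dog 18-6, close to the value of its own pair.

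CPM was scaled by total counts, also where overlap of libraries was judged. Total counts of the 8 libraries ranged from 2690847 to 6963346, so that 3 counts in a single library correspond to at most 1.11 CPM. No libraries of a tissue were duplicates (chi-square per degree of freedom of 3.61 to 16.3 between pairs). Identifiers were named by this rule: the 2 in each direction with the highest mean CPM among those called, at least 4-fold different and of one direction in 4 of 4 dogs, and the 2 in each direction with the most extreme regional value among those called, if log2 CPM averaged 1 or more over the 16 libraries. Groups, lists, rules and tests were chosen with earlier results of these data known. The marker and pathway lists drawn up by symbol were not used, since the RefSeq table of assembly UU_Cfam_GSD_1.0 held no Ensembl identifiers to match. Alternatives covered normalization, low-count filter, test, block and each dog left out. Thinning of all libraries to the smallest total, and leaving out dogs 18-6 and 18-9 together, were added after seeing the data.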

Additional observations from a re-analysis of the deposited data

Results flagged for a closer look

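Within groups of 4 libraries, 5 values stood far from the other 3, of 46 groups looked at. The bound used marks about 1 in 20 groups of independent normal values. That rate does not hold for groups near 0, where a group without counts is never marked and a single value beside values of 0 always is. The most abundant identifier of peripheral retina reached 1054 CPM in dog 18-6. The RPE/choroid list was highest in dog 18-9 in both peripheral tissues, at 0.0316% of the counts in retina and 1.07% in RPE/choroid. ENSCAFG00000005313 had 45.8 CPM in the peripheral RPE/choroid of dog 18-7. ENSCAFG00000000052 had 0.412 CPM in the macular retina of dog 18-6, where the other 3 dogs had no count.

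For 6 named identifiers the tissue difference of the periphery differed from that of the macula by the test of that difference (edgeR). The adjusted p was 0.0425 for ENSCAFG00000038248, 0.0247 for ENSCAFG00000000052, 0.0158 for ENSCAFG00000005313, 0.0293 for ENSCAFG00000048501, 0.00548 for ENSCAFG00000017958 and 0.0188 for ENSCAFG00000000419. The first 4 were picked as the most extreme of the called identifiers, and the last 2 for their abundance in the periphery.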

How the results depend on the processing

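The number of identifiers called between the peripheral tissues stayed within 1.5 times of 9700 under every alternative run, from 8705 without dog 18-7 to 10532 without a low-count filter, and no identifier was called in the opposite direction in any of them. It was 9584 with no replicate block, 9206 with DESeq2, and 8902 with all libraries thinned to the smallest total. Scaling by total counts alone moved the median log2 fold change of all identifiers from 0.02 to 0.11 and the split to 5508 towards retina and 4449 towards RPE/choroid. The 4 abundant identifiers kept their direction and their call in 48 of 48 alternatives. With a 4-fold bound, 2438 identifiers passed, 1080 higher in retina and 1358 in RPE/choroid. The regional count, 2049, moved to 292 with dog-by-region blocks alone and 705 with no replicate block, 1622 with DESeq2, 2993 with dog-by-tissue blocks alone, and 341 to 1234 with 1 dog left out. It was 1880 with dogs 18-6 and 18-9 both left out, and the cause of these moves was not tested. Identifiers that differed between dogs, 22 with all dogs, numbered 43 with a filter of 1 CPM in 4 libraries and 0 to 21 with 1 dog left out. The log2 ratio of the number of identifiers holding 50% of the counts was 0.0218, and ran from -0.0218 (without dog 18-6) to 0.0523 with 1 dog left out. Depth limits what can be said below about 1 CPM in a single library.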

Other observations

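The macular lists were also measured in the 6 macular RPE/choroid libraries of the 3 other dogs, which chose none of their members. The RPE/choroid list held 1.26 to 1.47% of the counts there, against 0.953 to 1.07% in the peripheral RPE/choroid of the first 4 dogs. The retina list held 0.0349, 0.00184 and 0.00369% in dogs 1, 2 and 3 with the retina left on during sampling, and 0.00688, 0.00710 and 0.00268% with the retina peeled off. Of these 6 libraries, 5 were within or below the 0.00346 to 0.00774% of peripheral RPE/choroid, and the retina-on library of dog 1 was above it.

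The 190 identifiers that were low in the macular RPE/choroid of dogs 18-6 and 18-9 were not all of 1 tissue. In the periphery 121 of them (63.7%) were called higher in RPE/choroid and 34 (17.9%) higher in retina. Of the 11968 identifiers they were drawn from, 37.2% and 27.4% were. They held 1.52% and 1.49% of the counts in the macular retina of dogs 18-6 and 18-9, and 1.29% in that of dogs 18-2 and 18-7 each. Peripheral retina of the 4 dogs held 1.24 to 1.34%. The part of dissection or RNA quality in this pattern was not tested.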
